A study of Mus musculus with 17 samples.

Results

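A group of 7 genes of the p53 stress response that act on nutrient sensing, redox control and metabolism was followed across sorted intestinal cells with and without irradiation. They were the 3 sestrins (Sesn1, Sesn2 and Sesn3), the mTORC1 inhibitors Ddit4 and Ddit4l, the glutaminase gene Gls2 and Tigar, which the array design lists under the clone name 9630033F20Rik. Members were taken as every probe whose listed gene name equals one of these names, which gave 8 probes for 7 genes, out of 27780 gene names and 41453 probes that passed the filter on dim probes. All 7 genes and all 8 probes passed it. The rule that matched probes to names used no measured value, but the 7 genes were chosen with earlier results of these data known.

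The RNA came from LGR5-GFPki mice, a knock-in in which green fluorescent protein reports Lgr5, the R-spondin receptor that marks cycling stem cells at the crypt base. Each of 17 single-colour arrays measured 1 sorted sample: 4 of LGR5hi and 5 of LGR5lo cells from mice left non-irradiated, and 4 of each sort from mice given 12 Gy of gamma rays. Cells were sorted 3 h after exposure, every group carried the reporter allele, and each group held both sexes. The age of the mice, whether animals were pooled and whether arrays of a group came from separate mice are not given in the sources used here, so p-values measure the spread between these samples, which may be technical. A gate on green fluorescence separates cells by reporter brightness and does not by itself make either sort 1 cell type, and in sorted bulk RNA a smaller number of expressing cells cannot be told apart from less RNA per cell.

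Sestrins are stress-induced proteins that hold back the growth kinase mTORC1, in part by binding the GATOR2 complex of the amino acid sensing pathway and in part through AMPK, and they also act in peroxide defence. Ddit4 (REDD1) and Ddit4l (REDD2) restrain mTORC1 through the TSC complex, Gls2 makes glutamate from glutamine in mitochondria, and Tigar lowers fructose-2,6-bisphosphate and so favours the pentose phosphate pathway. Sesn1, Sesn2, Ddit4, Ddit4l, Gls2 and Tigar have all been described as p53-responsive in one setting or another, whereas Sesn3 is best known as a FOXO target. In the crypt, mTORC1 activity has been tied to growth and to regeneration after radiation injury.

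The sort and the arrays were checked first. Lgr5 had a normalized log2 signal (log2 of the processed signal minus the array's 75th percentile) of 4.23 ± 0.31 in non-irradiated LGR5hi and 1.09 ± 0.51 in non-irradiated LGR5lo cells (SD), and of 2.71 ± 0.33 and -0.18 ± 0.47 after irradiation. Olfm4 and Ascl2, a secreted marker and a transcription factor of these stem cells, were likewise higher in LGR5hi cells in both arms, with means of 6.15 against 4.25 and 5.84 against 3.91 without irradiation. All 13 listed stem cell markers were above background on every flagged array. Their mean level per array was 4.39 to 4.72 in non-irradiated and 3.54 to 3.92 in irradiated LGR5hi cells, and 2.55 to 3.22 and 1.85 to 2.33 in LGR5lo cells. Markers of mature cells were present in both sorts: 9 enteroendocrine markers, led by Chgb, had a mean of 0.69 to 1.76 in non-irradiated LGR5hi and 4.46 to 4.95 in non-irradiated LGR5lo arrays, and 1.07 to 1.51 and 4.91 to 5.62 after irradiation. Goblet markers (6 tested, led by Clca1 or Tff3) ran from 5.29 to 6.47 and from 7.52 to 8.82 without irradiation, and from 5.10 to 6.05 and 8.0 to 8.51 with it. Paneth (Itln1 highest), enterocyte and tuft markers were detected in every group, and the enterocyte mean ranged most between arrays, from 1.15 to 5.18 in non-irradiated LGR5hi cells. Leukocyte (Itgam), stromal and endothelial (Pecam1 or Vim) and erythrocyte (Hba-a1) lists had means of at most 0.31, -0.69 and -1.94. Single genes were brighter than these means. Itgam averaged 5.46 to 6.12 over the groups, and Vim 1.61 in non-irradiated and 2.88 in irradiated LGR5lo cells. In LGR5hi cells the brightest stromal or endothelial gene averaged -2.15 without and -1.81 with irradiation. All 9 leukocyte and all 5 stromal and endothelial genes tested were above background on every flagged array. The part of these cells in the results that follow was not tested. One array stands apart, non-irradiated LGR5lo replicate 2, with 95.6% of spots well above background against 58.9% to 73.9% on the other flagged arrays. Non-irradiated LGR5lo replicate 4 has a recorded spike-in slope of 0, against 0.791 to 1.005 on the other arrays. Without it the irradiation differences in LGR5lo cells were 2.37 for Sesn2, 5.25 for Ddit4l, -0.9999 for Sesn3 and 0.59 for Tigar, all still called. The file of non-irradiated LGR5hi replicate 1 was readable for 15329 of 62976 spots and its values were rebuilt, without background flags.

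Irradiation was examined first for the genes that inhibit mTORC1. Sesn2 rose in both sorts. On the normalized log2 scale its probe (NM_144907; mm9 chromosome 4, 132048858 to 132048917, minus strand) read 1.85, 1.82, 1.40 and 1.38 in non-irradiated LGR5hi replicates 1 to 4 and 4.48, 4.49, 4.18 and 4.02 in the irradiated ones. In LGR5lo cells it read 1.55, 1.73, 1.58, 1.51 and 1.63 without irradiation and 4.15, 4.15, 3.87 and 3.81 with it. Every irradiated array was therefore above every non-irradiated one, with a gap wider than the spread within any group. The log2 difference, irradiated minus non-irradiated, was 2.68 ± 0.16 in LGR5hi cells (6.41-fold, 95% interval 5.08 to 8.08; adjusted p = 2.17e-08) and 2.39 ± 0.15 in LGR5lo cells (5.24-fold, 4.21 to 6.53; adjusted p = 7.73e-08). Errors of differences here and throughout are standard errors of the limma fit, and p-values are Benjamini-Hochberg adjusted over all gene names. The effects of the 2 sorts differed by 0.29 ± 0.22 (interval -0.17 to 0.75; adjusted p = 0.717), so no difference between the sorts was shown. On slide 1 alone (replicates 1 and 2 of each group) the rise was 2.65 in LGR5hi and 2.51 in LGR5lo cells, and on slide 2 alone (replicates 3 and 4) 2.71 and 2.29.

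Ddit4l, the close relative of Ddit4, had the largest fitted change of the 7 genes in both sorts, also with normexp background correction. Its probe (NM_030143; mm9 chromosome 3, 137290927 to 137290986, plus strand) read -3.83, -4.80, -3.31 and -4.25 in non-irradiated LGR5hi cells and 1.66, 2.89, 1.98 and 2.03 after irradiation. Non-irradiated LGR5lo arrays read -5.14, -1.62, -4.04, -6.03 and -5.10, and irradiated ones 1.02, 1.86, 1.26 and 0.97. The non-irradiated values lie at the edge of detection: the probe was well above background on 2 of 3 flagged LGR5hi and 2 of 5 LGR5lo arrays, and on all 8 irradiated arrays. The -1.62 belongs to the array that stands apart. The fitted rise was 6.19 ± 0.68 log2 in LGR5hi (adjusted p = 1.46e-05) and 5.67 ± 0.65 in LGR5lo cells (adjusted p = 4.55e-05). No fold is given, since its size depends on how the dim signals are treated: with normexp background correction it was 4.36 and 3.64, and without the array that stands apart 6.36 in LGR5lo cells. The rise was 6.59 and 4.82 on slide 1 alone, where neither passed the threshold (adjusted p = 0.0711 and 0.249), and 5.79 and 6.15 on slide 2 alone. The effects differed by 0.52 ± 0.94 between the sorts (interval -1.48 to 2.52; adjusted p = 0.861).

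**Figure D1:**
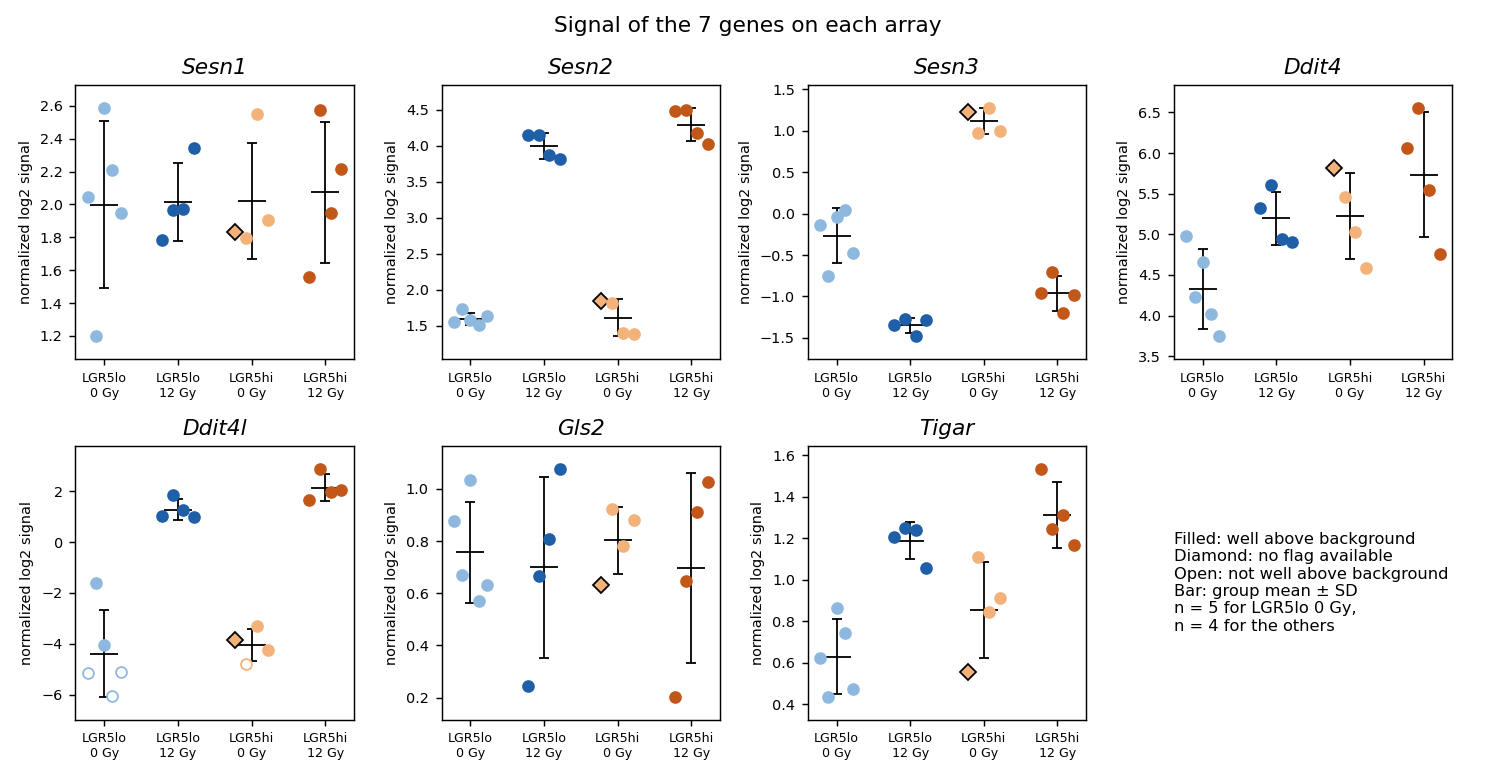
Normalized log2 signal (vertical axes) of the tested probe of each gene on every array, in 4 groups (horizontal axes), with the group mean and SD as bars; open points are not well above background and the diamond is the array without flags. Irradiated arrays of Sesn2 and Ddit4l lie above, and those of Sesn3 below, every non-irradiated array of the same sort, while the groups of Sesn1 and Gls2 overlap.

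Ddit4, which is also induced by hypoxia and glucocorticoids, had higher means after irradiation in both sorts but did not pass the test. Its probe (NM_029083; mm9 chromosome 10, 59412486 to 59412545, minus strand) read 5.82, 5.46, 5.03 and 4.58 in non-irradiated and 6.07, 6.56, 5.55 and 4.76 in irradiated LGR5hi cells. In LGR5lo cells it read 4.98, 4.22, 4.66, 4.02 and 3.75, and 5.32, 5.61, 4.94 and 4.91. The groups overlapped in both sorts. The difference was 0.51 ± 0.37 in LGR5hi (interval -0.28 to 1.29; adjusted p = 0.501) and 0.87 ± 0.35 in LGR5lo cells (0.12 to 1.62; adjusted p = 0.15). Part of the spread moved with the slide: in 3 of the groups both arrays of slide 1 lay above both of slide 2. With slide as a block the differences were 0.51 and 0.72, still short of the threshold (adjusted p = 0.254 and 0.107). Non-irradiated LGR5lo replicate 5 was the only array on slide 3, so the slide block takes it out of this comparison. Simply leaving that array out gave the same 0.72 in LGR5lo cells (limma adjusted p = 0.259).

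Sesn1, the sestrin first described as a p53 target, showed no detected change. Its probe (NM_001162908; mm9 chromosome 10, 41628012 to 41628071, plus strand) read 1.83, 1.80, 2.55 and 1.90 in non-irradiated and 1.56, 2.57, 1.95 and 2.22 in irradiated LGR5hi cells. It read 2.05, 1.20, 2.59, 2.21 and 1.95 in non-irradiated and 1.78, 1.97, 1.97 and 2.34 in irradiated LGR5lo cells. The groups overlap almost wholly. The differences were 0.05 ± 0.28 (interval -0.54 to 0.65; adjusted p = 0.955) and 0.02 ± 0.27 (-0.55 to 0.58; adjusted p = 0.971). Neither interval reaches the size of the rise of Sesn2. Only this 1 probe measured Sesn1, so transcripts that lack its sequence were not measured.

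Sesn3, the FOXO-linked member, fell in both sorts. Its probe (NM_030261; mm9 chromosome 9, 14130452 to 14130511, plus strand) read 1.22, 0.97, 1.28 and 0.99 in non-irradiated LGR5hi cells and -0.96, -0.70, -1.21 and -0.99 after irradiation. In LGR5lo cells it read -0.13, -0.75, -0.04, 0.05 and -0.47 without and -1.35, -1.28, -1.48 and -1.29 with irradiation. All irradiated arrays lie below all non-irradiated arrays of their sort, and it was well above background on all 16 arrays that have flags. The difference was -2.08 ± 0.18 in LGR5hi (4.23-fold lower; interval -2.45 to -1.71; adjusted p = 1.03e-06) and -1.08 ± 0.17 in LGR5lo cells (2.11-fold lower; -1.43 to -0.72; adjusted p = 0.000711). Within slides 1 and 2 it was -1.93 and -2.23 in LGR5hi cells. In LGR5lo cells it was -0.87 on slide 1, where it did not pass (adjusted p = 0.386), and -1.39 on slide 2. Centring the arrays on their median in place of the 75th percentile also ended the LGR5lo call (-0.83, adjusted p = 0.104). That setting moved the median of all genes in LGR5lo cells from -0.13 to 0.12. Of the 13 stem cell markers, 8 fell in LGR5hi and 5 in LGR5lo cells and 0 rose by limma (0 also at unadjusted p under 0.05), and the list's mean level was lower in irradiated arrays of both sorts, as given above. Its part in the fall of Sesn3 was not tested.

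The fall of Sesn3 was larger in LGR5hi than in LGR5lo cells by its fitted value (difference of effects -1.003 ± 0.24 log2, interval -1.52 to -0.49; unadjusted p = 0.000815), which missed the threshold over all genes (adjusted p = 0.263). It kept its sign in all 31 alternative fits, from -1.30 to -0.85. With same-numbered arrays of an arm joined as a random block the adjusted p was 0.0671, and with that pair as a fixed block 0.203.

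The metabolic enzymes came next. Tigar was measured by 2 adjacent probes of NM_177003 on mm9 chromosome 6, minus strand, from 127035231 to 127035290 (the brighter, which was tested) and from 127035171 to 127035230. The tested probe read 0.55, 1.11, 0.84 and 0.91 in non-irradiated and 1.54, 1.24, 1.31 and 1.17 in irradiated LGR5hi cells. In LGR5lo cells it read 0.62, 0.43, 0.86, 0.74 and 0.47, and then 1.21, 1.25, 1.24 and 1.06. The groups of this probe do not overlap in either sort, but the shift is small beside those of Sesn2 and Ddit4l. Tigar rose in LGR5lo cells by 0.56 ± 0.14 (1.48-fold, interval 1.20 to 1.81; adjusted p = 0.0222). In LGR5hi cells its difference was 0.46 ± 0.15 (1.37-fold, 1.11 to 1.71; adjusted p = 0.0513), just outside the threshold. The second probe gave 0.55 ± 0.16 in LGR5lo and 0.50 ± 0.17 in LGR5hi cells (adjusted p over all probes 0.0537 and 0.0689). Its LGR5hi groups overlapped, with 0.269 on the highest non-irradiated and 0.253 on the lowest irradiated array. The effects differed by -0.10 ± 0.20 (interval -0.53 to 0.33; adjusted p = 0.875). The LGR5lo call was lost in 9 of 31 alternative fits, among them those without irradiated LGR5lo replicate 1, 2 or 3 (adjusted p = 0.0638, 0.0584 and 0.0727), and the LGR5hi difference passed in 7 of 31, among them the fit without the array that stands apart (0.0291).

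Gls2, the p53-responsive glutaminase, showed no detected change. Its probe (NM_001033264; mm9 chromosome 10, 127646830 to 127646889, plus strand) read 0.63, 0.92, 0.78 and 0.88 in non-irradiated and 0.20, 0.65, 0.91 and 1.03 in irradiated LGR5hi cells. It read 0.88, 0.67, 1.03, 0.57 and 0.63, and 0.25, 0.67, 0.81 and 1.08, in LGR5lo cells. Replicate 1 was the lowest array of both irradiated groups. The differences were -0.11 ± 0.20 (interval -0.53 to 0.32; adjusted p = 0.854) and -0.06 ± 0.19 (-0.46 to 0.35; adjusted p = 0.861).

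**Figure D2:**
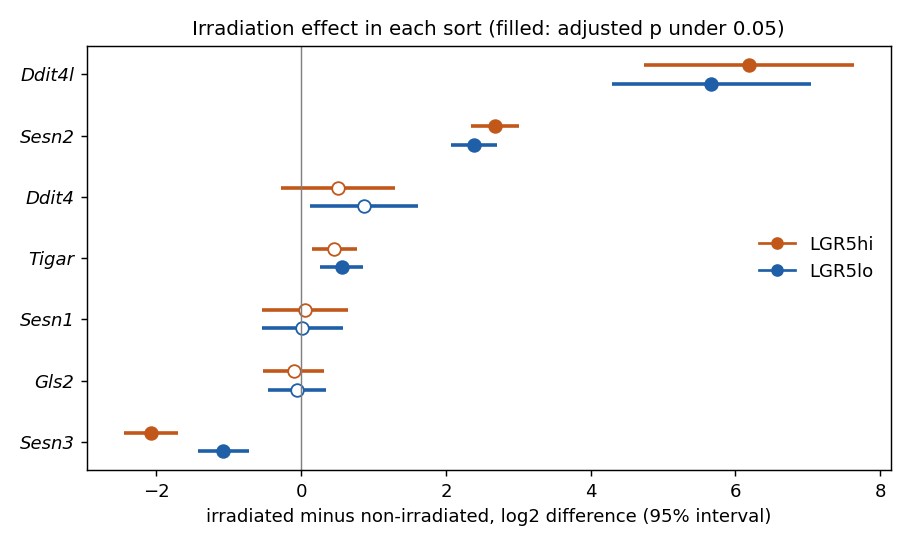
Irradiated minus non-irradiated log2 difference (horizontal axis) of each gene in LGR5hi and LGR5lo cells, with the 95% interval of the fit as a line and filled points at adjusted p under 0.05. Ddit4l and Sesn2 lie to the right of 0 and Sesn3 to the left in both sorts, and the Sesn3 points of the sorts are the farthest apart relative to their intervals.

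In all, 3 of the 7 genes were called for irradiation in LGR5hi cells (2 higher, 1 lower), where 13.5% of all tested gene names were called (6.18% higher, 7.28% lower). In LGR5lo cells 4 were called (3 higher, 1 lower), against 7.48% of all names (4.47% higher, 3.01% lower). The 3 genes called in LGR5hi cells, Sesn2, Ddit4l and Sesn3, were also called in LGR5lo cells, in the same directions. The difference of the effects was called for 0 of 7 by limma (1 at unadjusted p under 0.05, Sesn3), against 0.0396% of all names (0.036% higher, 0.0036% lower). The number of all names called for that difference was 11, and 46 with the random block. Without the array that stands apart the counts of members were 4 in LGR5hi and 4 in LGR5lo cells, and without the rebuilt array 3 and 4.

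The next comparison asked whether the sorts differed within an arm. Without irradiation Sesn3 was higher in LGR5hi than in LGR5lo cells by 1.39 ± 0.17 (2.62-fold, interval 2.05 to 3.34; adjusted p = 5.57e-05), and the groups did not overlap. It was the only 1 of 7 genes called, against 9.54% of all names (4.61% higher, 4.93% lower). The LGR5hi array was above its same-numbered LGR5lo array in 4 of 4 pairs, by 0.95 to 1.72. The labels do not say whether same-numbered arrays came from the same mouse. Within an arm they shared sex and slide. Same-numbered arrays of an arm deviated from their group means together, and with the pairs as a fixed block the difference was 1.34 (adjusted p = 0.00142). Within slide 1 the difference of Sesn3 was 1.54 and within slide 2 it was 1.13, neither past the threshold with 2 arrays a group (adjusted p = 0.117 and 0.069). It was 1.27 without the array that stands apart and 1.35 without the rebuilt array. In the same comparison 9 of 9 enteroendocrine, 7 of 7 tuft and 5 of 6 goblet markers were called lower, and 11 of 13 stem cell markers higher, in LGR5hi cells, with medians of -3.76, -1.89, -2.63 and 1.61. Of 10 enterocyte markers 0 were called by limma (0 also at unadjusted p under 0.05), with a median of -0.60. Of 5 Paneth markers 1 was called lower, with a median of -0.67. The part of any of these markers in the Sesn3 difference was not tested. The count of all names called in this comparison was 2650, and 4185 with the random block.

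After irradiation the Sesn3 gap was 0.38 ± 0.18 (interval 0.01 to 0.76; adjusted p = 0.262), again with 4 of 4 pairs higher in LGR5hi cells (by 0.27 to 0.58) and with groups that did not overlap. With the pairs as a random block its adjusted p was 0.122, and as a fixed block 0.162. In that arm limma called 0 of 7 genes (1 at unadjusted p under 0.05, Sesn3), against 6.29% of all names (2.21% higher, 4.08% lower). All names called numbered 1748, and 2889 with the random block. The order of the Sesn3 means was non-irradiated LGR5hi, non-irradiated LGR5lo, irradiated LGR5hi, irradiated LGR5lo. Of these neighbours the first pair differed by a called test, the last pair did not, and the middle pair was not tested.

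Ddit4 came next. It was 0.90 ± 0.35 higher in LGR5hi cells without irradiation (interval 0.15 to 1.64; adjusted p = 0.123) and higher in 4 of 4 pairs, by 0.37 to 1.24. With the pairs as a random block the difference was 0.86 (adjusted p = 0.0579) and as a fixed block 0.75 (0.0674), so the gap did not pass in these fits. After irradiation it was 0.54 ± 0.37 (adjusted p = 0.527, and 0.321 with the random block) and the LGR5hi array was higher in 3 of 4 pairs.

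**Figure D3:**
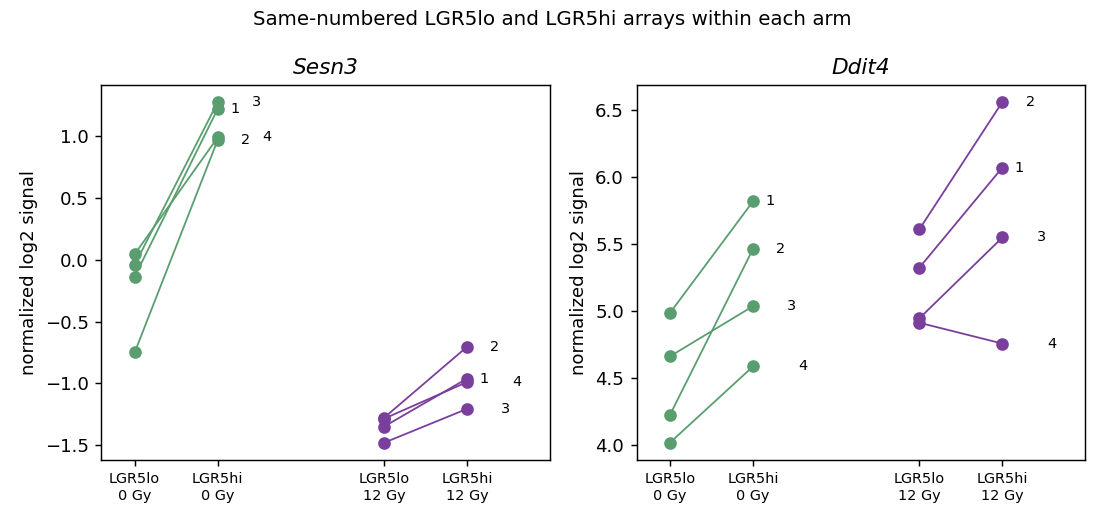
Normalized log2 signal (vertical axis) of Sesn3 and Ddit4 on same-numbered LGR5lo and LGR5hi arrays of each arm, joined by lines and labelled with the replicate number. All 4 Sesn3 lines rise in each arm and are steeper without irradiation; 3 of 4 irradiated Ddit4 lines rise.

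None of the other genes passed the test between the sorts. Sesn2 was 0.01 ± 0.15 apart without irradiation and 0.30 ± 0.16 with it (interval -0.03 to 0.63; adjusted p = 0.35), where the LGR5hi array was higher in 4 of 4 pairs, by 0.21 to 0.34. Ddit4l was 0.34 ± 0.65 apart without irradiation and 0.86 ± 0.68 with it (interval -0.59 to 2.31; adjusted p = 0.606), in the irradiated arm again with 4 of 4 pairs higher in LGR5hi cells, by 0.63 to 1.06. Tigar differed by 0.23 ± 0.14 and 0.13 ± 0.15, Sesn1 by 0.02 ± 0.27 and 0.06 ± 0.28, and Gls2 by 0.05 ± 0.19 and -0.003 ± 0.20. With the pairs as a random block the irradiated values of Sesn2 and Ddit4l were the same in size, with adjusted p of 0.173 and 0.466. The intervals do not show that the sorts were alike. How many of all names had every pair in the same direction, or groups without overlap, was not counted. Here and above these patterns describe the arrays and add nothing to the tests.

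Sequence upstream of the start sites was then set beside the responses. Promoter sequence was held for 6 of the 7 genes (RefSeq, GRCm38.p6, a later build than the mm9 of the probes), and the 250 bases before each start were searched on both strands for 8 motifs. The following 4 are shown because Ddit4l and Sesn2 rose, Sesn3 fell and Sesn1 did not change detectably. Capitals mark a match to the p53 half-site or to the antioxidant response element (TGACNNNGC), the motif of NRF2. The windows, 5′ to 3′ on the gene's strand, are chr3:137623422-137623671 (plus) for Ddit4l, chr4:132510457-132510706 (minus) for Sesn2, chr9:14276051-14276300 (plus) for Sesn3 and chr10:41887189-41887438 (plus) for the second of the Sesn1 starts.
Ddit4l: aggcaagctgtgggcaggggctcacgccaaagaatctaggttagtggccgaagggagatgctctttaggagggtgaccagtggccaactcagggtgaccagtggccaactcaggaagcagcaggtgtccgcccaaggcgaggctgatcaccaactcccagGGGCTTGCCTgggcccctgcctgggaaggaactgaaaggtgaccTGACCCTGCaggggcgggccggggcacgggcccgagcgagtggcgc
Sesn2: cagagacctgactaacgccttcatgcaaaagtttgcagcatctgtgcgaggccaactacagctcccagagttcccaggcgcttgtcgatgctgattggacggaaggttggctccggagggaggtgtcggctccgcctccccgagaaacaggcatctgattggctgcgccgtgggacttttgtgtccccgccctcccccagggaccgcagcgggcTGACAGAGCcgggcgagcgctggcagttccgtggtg
Sesn3: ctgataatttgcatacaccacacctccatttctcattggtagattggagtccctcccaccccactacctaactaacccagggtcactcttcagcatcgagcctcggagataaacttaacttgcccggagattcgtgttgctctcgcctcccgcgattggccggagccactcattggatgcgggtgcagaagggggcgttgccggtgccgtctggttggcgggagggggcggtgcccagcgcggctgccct
Sesn1: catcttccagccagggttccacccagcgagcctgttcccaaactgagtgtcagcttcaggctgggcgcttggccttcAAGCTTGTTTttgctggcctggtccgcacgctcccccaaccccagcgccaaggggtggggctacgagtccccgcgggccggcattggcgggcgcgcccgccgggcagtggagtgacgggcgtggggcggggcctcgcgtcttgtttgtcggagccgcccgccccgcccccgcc
A p53 half-site began 90 bases before the Ddit4l start and 173 bases before this Sesn1 start. The window of the other Sesn1 start held none. A half-site match was held by 7.13% of the 32851 promoters in the table, so it is common by its letters alone. An antioxidant response element began 46 bases before the Ddit4l start and 36 before the Sesn2 start, and 10.2% of all promoters held one. The Ddit4 window held a hypoxia response core (ACGTG) at 187 bases before the start, as did 16.6% of promoters. The CCAAT box was held by 6 of the 7 windows (Sesn1 has 2) and by 33.8% of all; Ddit4l was the one without it, and Sesn3 held 4 copies. No window held the letters of the ATF4 composite site TGATGNAA (3.45% of all), the FOXO site GTAAACA (3.17%), the TATA box TATAAA (12.4%) or the glucocorticoid response element (0.387%). A match describes letters in this window and no binding, and p53 sites in introns or farther upstream were not searched.

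The genes around the sestrins in their pathways were taken from 8 lists. For irradiation the median of all genes was -0.02 in LGR5hi and -0.13 in LGR5lo cells, and the shares of names called higher and lower are those given above. In the amino acid sensing branch that sestrins act on, 25 genes of GATOR, Rag GTPases and lysosomal sensing were tested. In LGR5hi cells 1 rose and 5 fell (median -0.21). Those with the smallest p were the GATOR1 subunit gene Nprl3 (0.83 ± 0.15), the Rag GTPase gene Rragd (-0.87 ± 0.17), the arginine sensor family gene Castor2 (-1.14 ± 0.23) and the lysosomal arginine sensor gene Slc38a9 (-0.89 ± 0.19). In LGR5lo cells 1 rose and 1 fell (median 0.05), Nprl3 (0.63 ± 0.14) and Rragd (-0.90 ± 0.16). These LGR5lo counts are near the shares over all names (4.47% higher, 3.01% lower).

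Of 31 genes of the mTOR complexes, the TSC complex and the S6K and 4E-BP outputs, 3 rose and 2 fell in LGR5hi cells (median -0.13). In LGR5lo cells 1 rose and 2 fell (median 0.10). Over all names 6.18% were called higher and 7.28% lower in LGR5hi, and 4.47% and 3.01% in LGR5lo cells. Counts this small do not set the list apart from those shares, and the following are single genes. Deptor, an inhibitory subunit of both mTOR complexes, fell by 1.33 ± 0.18 and 0.77 ± 0.18. Tfeb, the lysosomal transcription factor controlled by mTORC1, was -0.68 ± 0.16 and -0.74 ± 0.15, called lower in both. Tbc1d7, a TSC subunit gene, and Prr5l, of mTORC2, rose in LGR5hi cells by 0.82 ± 0.17 and 1.10 ± 0.25, and the translation repressor gene Eif4ebp1 rose in LGR5lo cells by 0.84 ± 0.23.

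Of 15 AMPK and LKB1 genes, 2 rose in LGR5hi cells and 0 fell by limma (4 at unadjusted p under 0.05; median 0.04), and 3 rose and 1 fell in LGR5lo cells (median 0.17). The catalytic subunit gene Prkaa2 rose by 1.27 ± 0.24 and 0.94 ± 0.23 and the regulatory Prkab2 by 0.75 ± 0.14 and 0.56 ± 0.14. Prkag1, also a regulatory subunit gene, rose in LGR5lo cells by 0.78 ± 0.20. Acaca, the acetyl-CoA carboxylase that AMPK phosphorylates, fell there by 0.65 ± 0.19.

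Of 18 peroxiredoxin, thioredoxin and NRF2 partners, 5 rose in LGR5hi and 4 in LGR5lo cells, with medians of 0.00 and 0.45, and 0 fell by limma in either (1 and 0 at unadjusted p under 0.05). Hmox1, the heme oxygenase gene, rose by 2.50 ± 0.23 and 1.47 ± 0.22, and Srxn1, the sulfiredoxin that reactivates peroxiredoxins, by 1.76 ± 0.25 and 1.50 ± 0.24. The thioredoxin reductase gene Txnrd1 rose by 1.26 ± 0.21 and 0.91 ± 0.20, and Nfe2l2, which encodes NRF2, by 0.89 ± 0.18 and 1.11 ± 0.17.

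Around Gls2, 22 genes of glutamine, glutamate and glutathione metabolism were tested. In LGR5hi cells 2 rose and 3 fell (median 0.01) and in LGR5lo cells 4 rose and 1 fell (median 0.30). The glutathione synthesis genes Gclc (1.76 ± 0.22 and 1.49 ± 0.21) and Gss (1.23 ± 0.17 and 1.15 ± 0.16) rose in both sorts. In LGR5hi cells the proline synthesis gene Aldh18a1 fell (-1.53 ± 0.25). In LGR5lo cells the CTP synthase gene Ctps rose (0.67 ± 0.17) and the alanine transaminase gene Gpt2 fell (-1.06 ± 0.27).

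Around Tigar, 24 genes of fructose bisphosphate control and the pentose phosphate pathway were tested. In LGR5hi cells 3 rose and 2 fell (median 0.19), and in LGR5lo cells 4 rose and 0 fell by limma (1 at unadjusted p under 0.05; median 0.23). Pfkfb3, a kinase that raises fructose-2,6-bisphosphate, rose by 2.45 ± 0.30 and 1.05 ± 0.29. Its relative Pfkfb4 (-1.49 ± 0.34) and the phosphofructokinase gene Pfkm (-1.07 ± 0.17) fell in LGR5hi cells. The pentose phosphate epimerase gene Rpe rose by 0.81 ± 0.18 and 0.85 ± 0.17, and in LGR5lo cells H6pd (1.15 ± 0.19) and the hexokinase gene Hk2 (1.02 ± 0.25) rose.

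Of 24 genes listed as other p53-regulated metabolic genes, 14 rose and 3 fell in LGR5hi cells (median 0.92). In LGR5lo cells 9 rose and 1 fell (median 0.58). The list is not purely metabolic, since it also holds Aen and Trp53inp1. The exonuclease gene Aen rose by 2.36 ± 0.17 and 2.27 ± 0.16, Trp53inp1, a p53 cofactor, by 3.80 ± 0.29 and 3.74 ± 0.27, the proline pathway dehydrogenase gene Aldh4a1 by 4.66 ± 0.35 and 2.83 ± 0.33, and the polyamine acetyltransferase gene Sat1 by 1.87 ± 0.18 and 1.66 ± 0.17.

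Of 19 transcription factors, cofactors and related genes listed around the 7 members, 5 rose and 2 fell in LGR5hi cells (median 0.27). In LGR5lo cells 6 rose and 2 fell (median 0.24). The list does not hold activators alone, so these counts do not measure activation of the members. Mdm2 and Mdm4, the inhibitors of p53, rose by 3.15 ± 0.29 and 2.95 ± 0.28 and by 1.82 ± 0.23 and 1.58 ± 0.22. Cebpb rose by 1.22 ± 0.20 and 1.27 ± 0.19, and Nfe2l2 as given above. Tsc22d3, a glucocorticoid-induced gene, fell in LGR5hi cells by 1.62 ± 0.28.

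**Figure D4:**
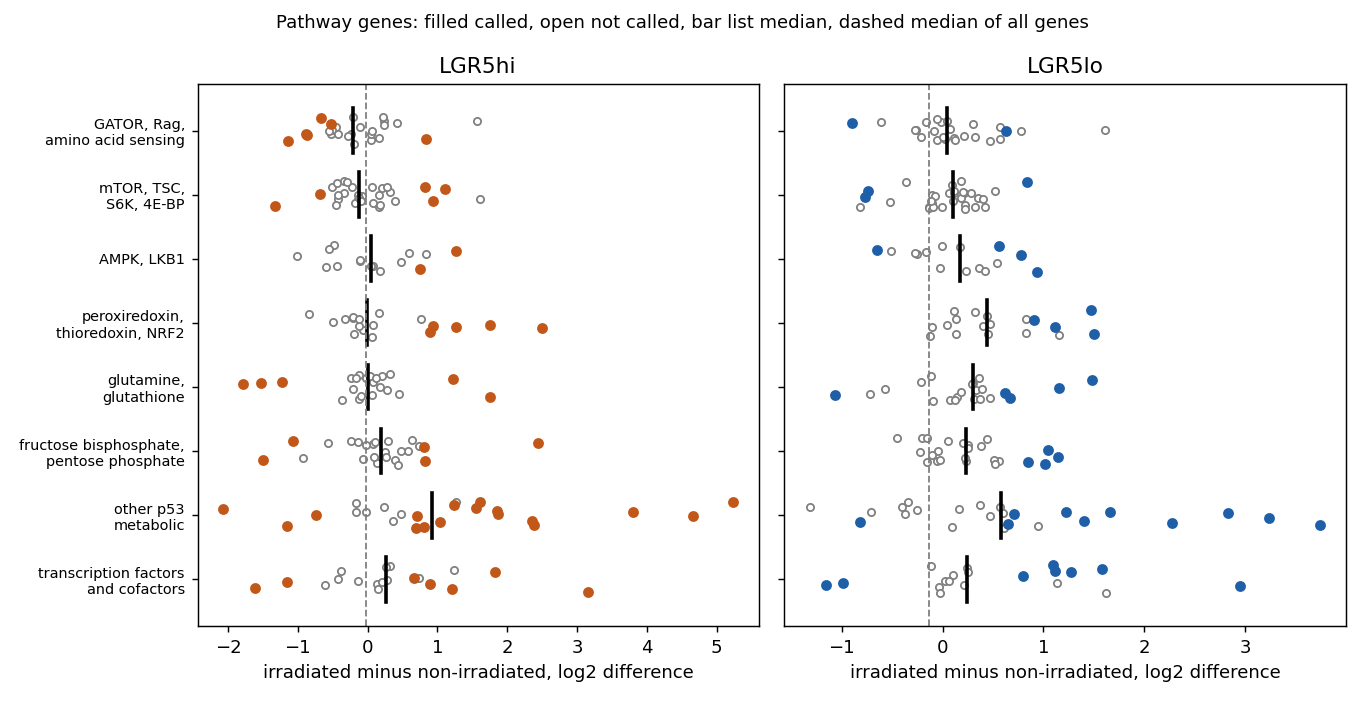
Irradiated minus non-irradiated log2 difference (horizontal axis) of each tested gene of the 8 lists (vertical axis) in LGR5hi and LGR5lo cells; filled points passed the test, black bars are list medians and the dashed line is the median of all genes. The list of other p53-regulated metabolic genes, which is not purely metabolic, has the highest median in both sorts, at 0.92 and 0.58.

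Genes whose pattern over the 17 arrays was most like each member's were found by Pearson correlation, as a description: the points share groups, slides and the scaling, so r mainly restates the group means where these are far apart. The nearest to Sesn2 were Kank3 (r = 0.99), the receptor gene Notch3 (0.989) and the stress cytokine gene Gdf15 (0.989), with irradiation differences in LGR5hi cells of 5.39, 7.26 and 5.62. The nearest to Ddit4l were Inka2 (0.986), Dennd2c (0.983) and Ddias (0.981), which differed by 6.77, 3.82 and 2.29.

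The nearest to Sesn3 were the adaptor gene Grb7 (0.986), the mitochondrial acetyl-CoA synthetase gene Acss1 (0.975) and the monocarboxylate transporter family gene Slc16a13 (0.97). Their irradiation differences were -1.71, -1.05 and -1.22 in LGR5hi and -1.10, -0.60 and -0.52 in LGR5lo cells. The nearest to Tigar were Scap (0.926), Ptp4a2 (0.918) and Baz1a (0.909), and to Ddit4 the Hippo pathway factor gene Tead1 (0.95), Nsmf (0.933) and Rab12 (0.928). For Sesn1 they were Igsf9 (0.903), Ikzf5 (0.815) and the recombination gene Rad51c (0.811), and for Gls2 Mrpl1 (0.747), Vax2 (0.69) and Caprin1 (0.665), the lowest of the 7.

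Among the members, Sesn2 and Ddit4l followed each other over the 17 arrays (r = 0.955) and Sesn3 ran opposite to both (-0.782 and -0.754). Taken as deviations from the group means, these values were 0.193, -0.0251 and -0.387, with the non-irradiated Ddit4l values partly near background. The deviations of Sesn2 and Ddit4 had an r of 0.732, and those of Sesn1 and Sesn3 0.749. The array that stands apart was the lowest of its group for both Sesn1 (1.20) and Sesn3 (-0.75). Its part in the value of 0.749 was not tested. In the 2 irradiated groups and in non-irradiated LGR5hi cells, Sesn2 as well as Ddit4 was higher on both arrays of slide 1 than on both of slide 2.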

How the data were processed

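RNA of 17 sorted samples was labelled with Cy3 and hybridised to single-colour Agilent mouse arrays, per the labels' protocols. The deposited scanner files hold linear intensity per spot, background-subtracted by Agilent Feature Extraction 10.7.3.1 per the submitters' processing notes and file headers. A series table, also deposited, gives log2 values, scaled by the authors in a way worked out from the values (75th percentile, then each probe's median over arrays). It served to rebuild non-irradiated LGR5hi replicate 1: 100% of 13422 readable probes lay within 0.02 log2 after removal of a constant. The level that this constant implies relative to the file header, -0.194 log2, lay inside the range of the 16 whole arrays (-0.209 to -0.107). The remaining values of the damaged file, which hold text in some deposited cells (other), were not used.

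After outlier spots were dropped, log2 processed signals had the 75th percentile of their array (control spots excluded) subtracted. The 75th percentile was 286 to 627 intensity units on the 16 whole arrays. The filter kept 41453 of 55681 probes, those above background on 4 or more arrays and with values on 12 or more. RefSeq accessions matched 27229 probes and gave 2837 a newer symbol. The brightest kept probe of each of 27780 names was tested, 17945 of them in the gene table. One limma 3.58.1 model in R 4.3.3 (lmFit, eBayes) held the 4 group means of all 17 arrays, and its p-values were Benjamini-Hochberg adjusted across names, with calls at 0.05. The number of arrays limits the precision. Other steps used Python with numpy, pandas and matplotlib.

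The members, gene lists and comparisons were chosen with earlier results of these data known. Named genes are the 7 members, of each list up to 4 called genes with the smallest p, for each member the 3 nearest names by correlation (clone, contig and accession names passed over), Lgr5, Olfm4 and Ascl2, and the brightest marker of each other cell type; a few genes that this rule names are not reported here. LGR5hi and LGR5lo arrays of the same arm and number deviated from their group means together (r 0.121 to 0.457 in all 8 pairs). Values with the pairs as a block therefore stand beside the comparisons of the sorts for Sesn3 and Ddit4, and for Sesn2 and Ddit4l after irradiation. Arrays of the same number in different arms did not all deviate together (-0.0998 to 0.221). Those arrays differed in sex, whereas the pairs within an arm shared it, so this check cannot tell a shared mouse from shared sex. The alternatives tried were other scalings, normexp background correction with an offset of 50 (16 arrays), other filters, averaging probes per gene, the deposited series table, terms for sex, slide and replicate, models restricted to the groups compared, and leaving out each array; fits within a slide and with pairs as a fixed block were added after seeing the data.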

Additional observations from a re-analysis of the deposited data

Results flagged for a closer look

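One value among the 32 probe and group sets tested for a stray sample stood apart from its group. Sesn1 read 2.55 in non-irradiated LGR5hi replicate 3, while the other 3 arrays of that group read 1.80 to 1.90. The gap to the nearest array was 0.857 of the group's whole range, above the critical value of 0.829 for 4 samples. Chance passes this limit in about 1 in 20 groups. Without that array the irradiation difference of Sesn1 in LGR5hi cells was 0.23 and did not pass the test either.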

How the results depend on the processing

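Sesn2 kept its direction and its call for irradiation in both sorts under all 31 alternatives (2.60 to 2.77 in LGR5hi, 2.21 to 2.64 in LGR5lo cells), and Sesn3 in LGR5hi cells did too (-2.23 to -1.81). The calls of Ddit4l were lost on slide 1 alone, those of Sesn3 and Tigar in LGR5lo cells as given in the report, and that of Sesn3 between the non-irradiated sorts within either slide. The cause was not tested, except that single slides hold fewer samples. Members called in LGR5lo cells were 2 with median centring and 1 on slide 1 alone, and between the non-irradiated sorts 0 on slide 1 and 0 on slide 2 (limma; 1 before).

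All names called for irradiation in LGR5hi cells (3740) were 2357 with median centring, 2304 with normexp, 265 on slide 1 and 1567 on slide 2. In LGR5lo cells (2077) they were 1278 with median centring (1055 higher and 223 lower, against 1241 and 836), 787 when only the compared groups were fitted, 42 and 460 on the slides, and 1178 to 2537 with each array left out. For the difference of effects (11) they were 2 with median centring, normexp or slide as a block, 46 and 19 with the random and fixed replicate block, 0 on each slide and 0 to 26 with each array left out. Between the sorts without irradiation (2650) they were 985 with normexp, 4185 with the random block, 1156 with only the compared groups, 105 and 246 on the slides and 1439 to 4226 with each array left out. After irradiation (1748) they were 1061 with median centring, 2889 with the random block, 3111 with only the compared groups, 319 and 118 on the slides and 1062 to 2867 with each array left out.

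Changes of sign occurred 63 times in 1099 member values, all among differences that did not pass in either fit. Sesn1 for irradiation was -0.14 on slide 2 in LGR5hi cells and -0.12 (quantile), -0.038 (normexp), -0.028 (sex) and -0.24 (slide 2) in LGR5lo cells, for the difference of effects -0.26 (median centring) and -2.1e-05 (slide 1), and between the sorts -0.11 (quantile), -0.011 (normexp), -0.023 (sex) and -0.17 (slide 2) without irradiation and -0.075 (slide 2) with it. Gls2 was 0.14 on slide 2 in both sorts, 0.19 with median centring in LGR5lo cells, 0.0564 and 0.0558 for the difference of effects with quantile and normexp, and between the sorts -0.049 and -0.038 with these without irradiation, and 0.0073, 0.018 and 0.026 with quantile, normexp and slide 2 after it. Sesn2 was -0.0089 for the difference of effects with median centring and -0.14, -0.049 and -0.16 between the non-irradiated sorts with quantile, normexp and slide 2. Ddit4l was -0.36 for the difference of effects on slide 2 and -0.94 between the non-irradiated sorts on slide 1. Tigar was 0.012 and 0.016 for the difference of effects with quantile and slide 2. With each array left out, and in the order of irradiation in LGR5hi and LGR5lo, difference, and sorts without and with irradiation, Sesn1 ranged from -0.11 to 0.23, -0.18 to 0.17, -0.13 to 0.24, -0.18 to 0.17 and -0.11 to 0.23, and Gls2 from -0.22 to 0.058, -0.18 to 0.094, -0.20 to 0.12, -0.0001021 to 0.12 and -0.15 to 0.16. Ddit4l ranged from -0.17 to 0.935 for the difference and from -0.075 to 1.03 between the non-irradiated sorts, and Sesn2 from -0.068 to 0.087 there.

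With the replicate number as a block across arms, which the check of pairing did not bear out, Tigar in LGR5lo cells was 0.52 (adjusted p = 0.0589) and no other member changed its call. Arrays limit what can be said of Ddit4l without irradiation, where the probe was not well above background on 4 of 8 flagged arrays.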
